A study of Homo sapiens with 8 samples.

Results

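The C/EBP family genes described here are CEBPA, CEBPB, CEBPD, CEBPE and CEBPG. Their open chromatin was read from ATAC-seq of U-937, an established human myeloid cell line. ATAC-seq uses a transposase that cuts and tags accessible DNA, so that a pile of reads marks open chromatin. Every peak that overlapped the GENCODE body of 1 of these genes, or the 100 kb on either side of it, was taken. Overlapping peaks of the 4 deposited lists were merged into regions, which gave 159 regions near the C/EBP genes out of 161291 in all.

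The study had 8 samples in 4 groups of 2, each treated for 24 h. The groups were DMSO as the vehicle, ATRA at 0.1 µM, Corin at 0.1 µM, and ATRA with Corin, again at 0.1 µM apiece and referred to as the combination. ATRA, all-trans retinoic acid, binds and activates retinoic acid receptors, and Corin inhibits both the histone demethylase LSD1 and the histone deacetylases of the CoREST co-repressor complex. All groups were of the same cell line and came as 1 peak list a group, in which the replicates had been combined. A spread between replicates can therefore be given for none of the values, no difference between treatments was tested, and every comparison is between 2 lists. The 3 comparisons with DMSO share the DMSO list. Those of the combination with ATRA and with Corin use the same treatment lists again, so the comparisons are not independent.

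C/EBP proteins are leucine-zipper transcription factors that bind DNA as dimers and drive myeloid differentiation. C/EBPα commits progenitors to the granulocyte and monocyte lineages, C/EBPε drives late granulocyte maturation and granule protein genes, and C/EBPβ acts in stress-induced granulopoiesis and in macrophages. C/EBPδ is an inducible member of inflammatory responses, and C/EBPγ lacks a transactivation domain and acts as a dimer partner of the others. CEBPE is known as a gene that retinoic acid induces in myeloid cells.

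The sequences below are 200 bp windows (build hg38, plus strand) around the strongest summit of regions near CEBPA, CEBPB, CEBPE and CEBPG that are described below, each gained or past 1.5-fold in at least 1 comparison with DMSO. They do not include regions near CEBPD. Capitals mark matches to 4 motifs searched on both strands: C/EBP as TTGCNNAA, PU.1 as GAGGAAGT, RUNX as TGTGGTT and AP-1 as TGANTCA.
CEBPE, 9.05 kb upstream, called with ATRA and with the combination, chr14:23129210-23129409: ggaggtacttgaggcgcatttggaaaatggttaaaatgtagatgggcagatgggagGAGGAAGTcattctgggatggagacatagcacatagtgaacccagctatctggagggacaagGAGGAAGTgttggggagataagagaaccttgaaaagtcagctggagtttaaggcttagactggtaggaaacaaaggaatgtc
CEBPE, 7.38 kb downstream, lower with ATRA, chr14:23112776-23112975: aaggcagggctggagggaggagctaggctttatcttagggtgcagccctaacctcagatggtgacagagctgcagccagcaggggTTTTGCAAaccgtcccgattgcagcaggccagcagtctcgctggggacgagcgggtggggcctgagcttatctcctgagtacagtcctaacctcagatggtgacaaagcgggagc
CEBPB, 24.5 kb downstream, higher with ATRA, chr20:50215186-50215385: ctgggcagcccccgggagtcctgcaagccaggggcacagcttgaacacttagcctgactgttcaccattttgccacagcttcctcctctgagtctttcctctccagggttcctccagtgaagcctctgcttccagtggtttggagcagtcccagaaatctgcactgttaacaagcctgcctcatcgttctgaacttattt
CEBPB, 86.9 kb upstream, higher with Corin, chr20:50103790-50103989: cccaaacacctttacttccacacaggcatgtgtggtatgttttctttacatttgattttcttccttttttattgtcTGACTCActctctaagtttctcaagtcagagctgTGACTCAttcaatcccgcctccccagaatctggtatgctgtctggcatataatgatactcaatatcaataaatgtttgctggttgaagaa
CEBPA, 27.4 kb upstream, higher with ATRA, chr19:33329829-33330028: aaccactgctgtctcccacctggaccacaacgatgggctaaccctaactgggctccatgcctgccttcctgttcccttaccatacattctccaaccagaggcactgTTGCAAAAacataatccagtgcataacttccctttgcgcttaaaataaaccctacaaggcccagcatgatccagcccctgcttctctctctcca
CEBPA, 21.8 kb downstream, higher with Corin and with the combination, chr19:33280609-33280808: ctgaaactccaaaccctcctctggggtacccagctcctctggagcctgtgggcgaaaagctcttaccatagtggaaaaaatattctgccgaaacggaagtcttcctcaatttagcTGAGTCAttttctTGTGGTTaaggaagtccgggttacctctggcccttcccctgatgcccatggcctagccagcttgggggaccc
CEBPG, 42.7 kb downstream, lower with the combination, chr19:33416319-33416518: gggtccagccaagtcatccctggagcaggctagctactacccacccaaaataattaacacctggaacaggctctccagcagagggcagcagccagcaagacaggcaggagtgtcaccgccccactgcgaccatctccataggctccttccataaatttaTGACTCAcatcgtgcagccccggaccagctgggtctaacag
The window 9.05 kb upstream of CEBPE held 2 PU.1 matches, and the window 86.9 kb upstream of CEBPB held 2 AP-1 matches. The windows 7.38 kb downstream of CEBPE and 27.4 kb upstream of CEBPA each held 1 C/EBP match. The window 24.5 kb downstream of CEBPB held none of the 4.

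The CEBPE promoter is shown because its strongest summit lay at different starts in different lists. It is the 250 bp before the downstream start, from RefSeq (GRCh38.p14), and the capitals mark an AP-1 match.
CEBPE downstream promoter, chr14:23119256-23119505, minus strand: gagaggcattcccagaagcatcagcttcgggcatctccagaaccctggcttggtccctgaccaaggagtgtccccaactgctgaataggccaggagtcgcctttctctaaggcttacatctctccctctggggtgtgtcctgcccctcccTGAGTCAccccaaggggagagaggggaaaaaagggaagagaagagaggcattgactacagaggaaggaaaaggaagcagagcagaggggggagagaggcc
RefSeq promoter sequences were matched for CEBPA, CEBPB, CEBPE and CEBPG.

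C/EBP matches were in 14 of the 159 windows (8.81%), against 14.5% of the windows of all 161291 regions. PU.1 matches were in 9 (5.66%, against 6.73% of all), RUNX matches in 7 (4.40%, against 8.27%) and AP-1 matches in 17 (10.7%, against 12.2%). The retinoid receptor half-site AGGTCA was in 17 windows (10.7%, against 13.0%). Among them was the window at the strongest summit of the CEBPE promoter region, which held 1 of these half-sites and 1 AP-1 match. DR5, the direct repeat that contains a pair of these half-sites, was in 0 of 159 windows and in 0.0905% of all. C/EBP matches lay in 7 windows near CEBPB, 4 near CEBPA, 2 near CEBPE, 1 near CEBPG and 0 near CEBPD. A match is a stretch of letters, and binding was not measured.

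The number of peaks in a list ranged from 189896 with Corin to 222491 with DMSO. Of 8 myeloid marker genes, 6 had a promoter region in all 4 lists, among them SPI1, CD33, LYZ and ITGAM, while MPO had none and FCGR1A had one with Corin only. The 3 T cell genes had no promoter region, none of 4 erythroid genes had one in all lists, and of the B cell genes CD79A had one in every list and MS4A1 had none. The fold used throughout is the authors' own, the height of a peak divided by the background around it, and the highest fold of a region in a list is given. It differed between lists as wholes, with a median over peaks of 3.47, 4.80, 3.32 and 3.68 for DMSO, ATRA, Corin and the combination. Ratios between lists were therefore centred on the median of all regions called in both lists. The medians removed were 0.33 (log2) for ATRA over DMSO, −0.09 for Corin over DMSO, 0.03 for the combination over DMSO, −0.34 for the combination over ATRA and 0.10 for the combination over Corin. The pileup, the number of reads stacked at a summit, was solved from fold and −log10 p and its ratio was centred in the same way. The pileup medians removed were 0.10, −0.13 and 0.16 (log2) for ATRA, Corin and the combination over DMSO.

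Near the C/EBP genes, 110 regions were called with DMSO (69.2%, against 70.5% of all regions) and 103 with ATRA (64.8%, against 68.6%). With Corin 120 were called (75.5%, against 61.5%) and with the combination 91 (57.2%, against 57.8%). Of the 159, 72 (45.3%) were in all 4 lists, against 41.1% of all regions. In a single list only there were 11 with DMSO, 18 with ATRA, 15 with Corin and 5 with the combination. No shares over all regions are given beside these single-list counts, which therefore show nothing particular to the C/EBP genes. Assigned to the nearest family gene, CEBPB had 44 regions, CEBPE 33, CEBPD 32, CEBPA 28 and CEBPG 22. CEBPA and CEBPG are neighbours on chromosome 19, and 20 regions lay in the windows of both. The part in all 4 lists was 20 of 28 at CEBPA (71.4%), 23 of 44 at CEBPB (52.3%), 17 of 33 at CEBPE (51.5%), 6 of 22 at CEBPG (27.3%) and 6 of 32 at CEBPD (18.8%). By annotation, 43 of the 159 were within 1 kb of a transcript start, 7 were exonic, 68 intronic and 41 intergenic. A C/EBP gene was the nearest protein-coding start for 50 regions, of which 27 were near CEBPB, 15 near CEBPA, 3 each near CEBPE and CEBPG and 2 near CEBPD. Most regions in the windows thus lay closer to other genes, and the data do not link a region to the gene it acts on.

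**Figure D1:**
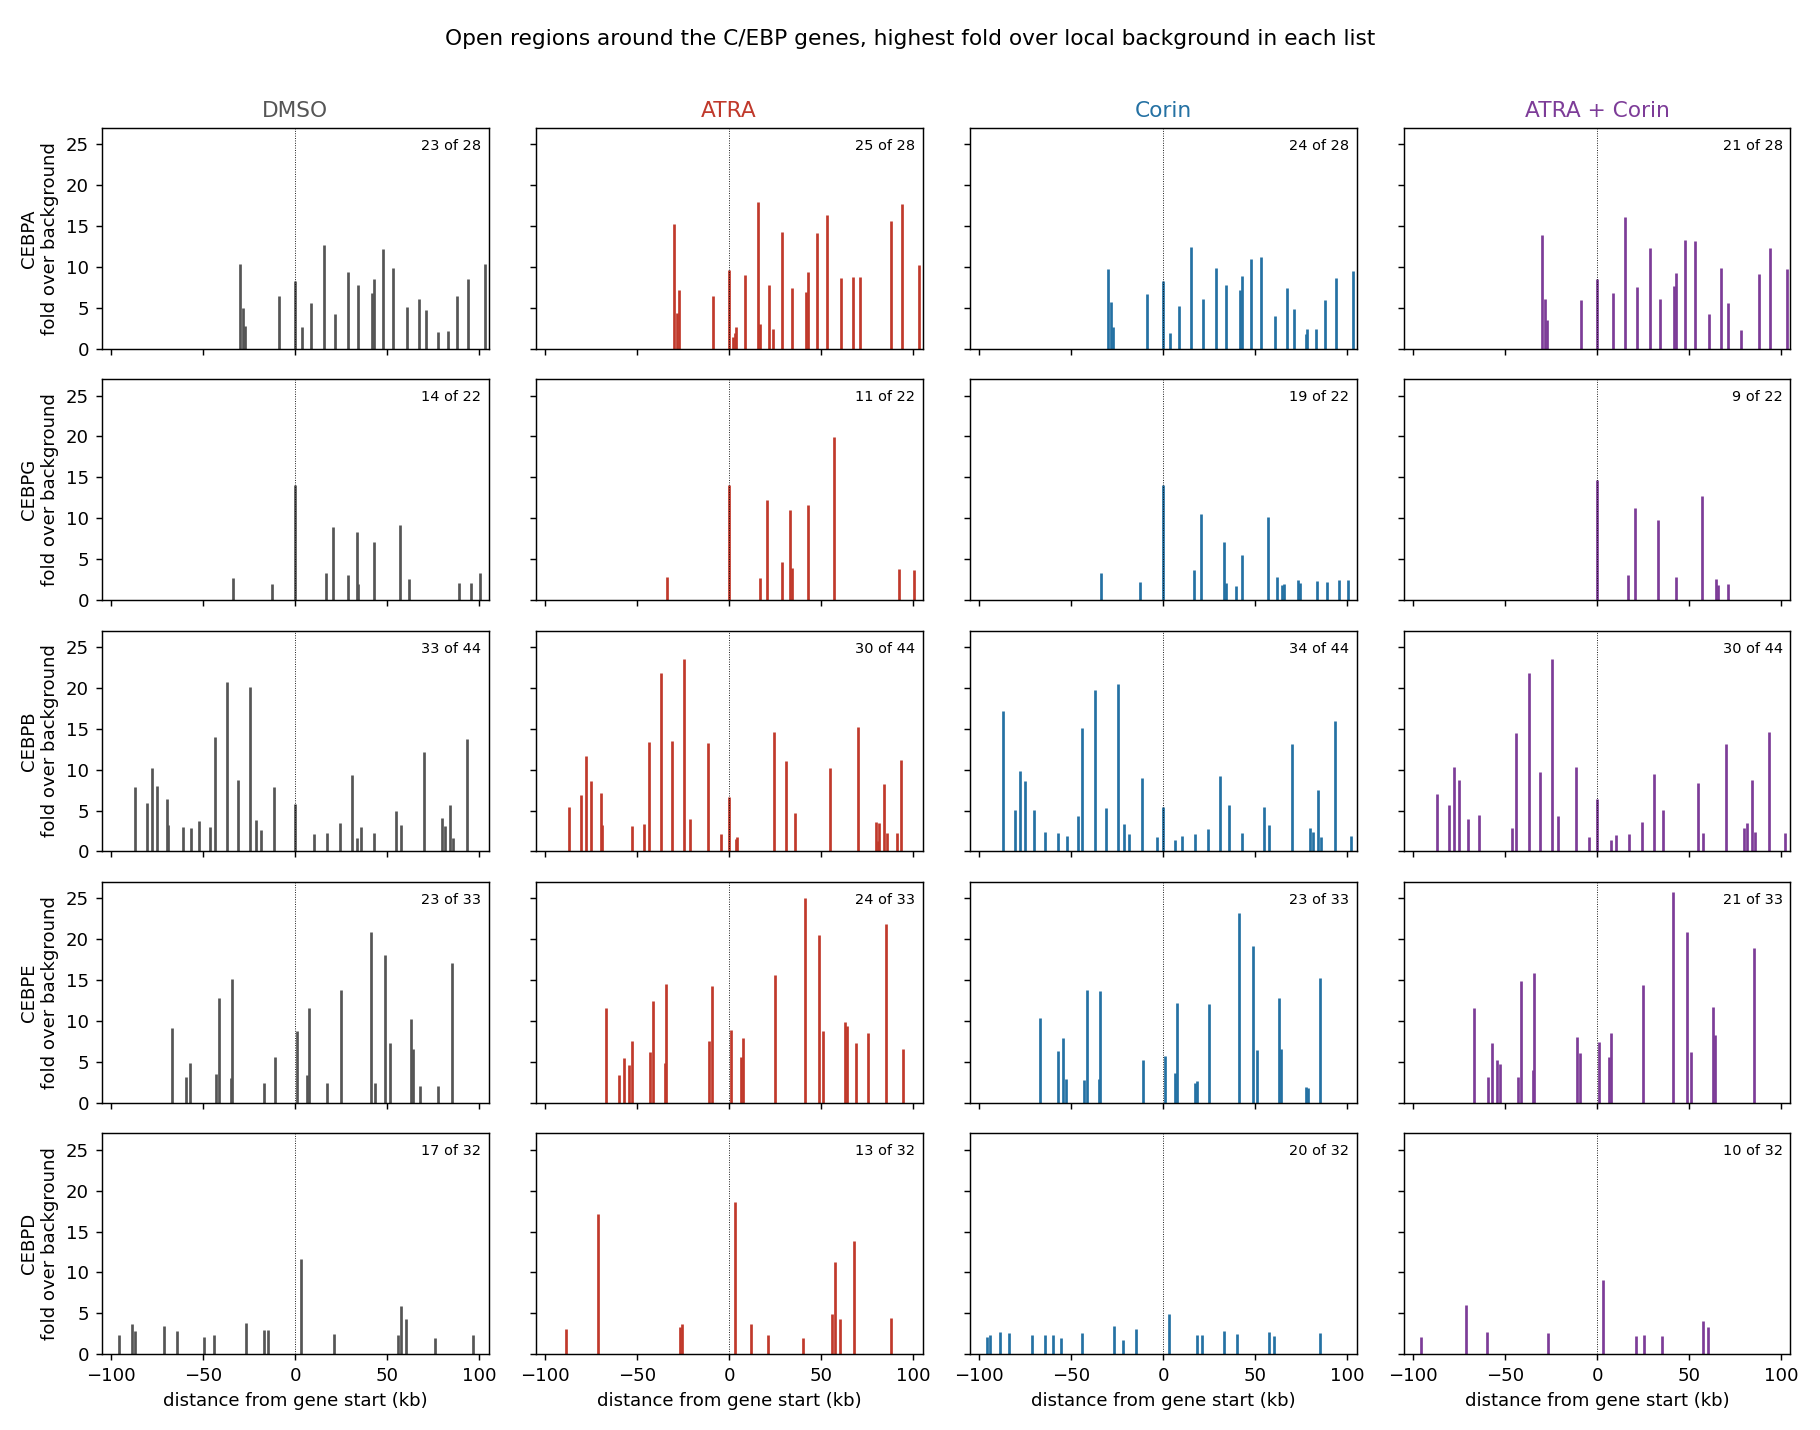
Each line is a region called in that list, placed by distance from the start of the gene (kb, positive downstream in the direction of transcription) with the authors' highest fold over local background as its height. Rows are the 5 genes, columns the 4 lists, and the count called is printed in each panel; the ATRA-only line 68.0 kb downstream of CEBPD and the line 9.05 kb upstream of CEBPE, in the ATRA and combination panels alone, stand out.

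At the promoters, CEBPA, CEBPG, CEBPB and CEBPE each had a region called in all 4 lists. None of them differed from DMSO by 1.5-fold in the centred fold with any treatment. The nearest region to CEBPD in the lists as used here lay 3.19 kb downstream of its start, so no promoter region is described for this gene.

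The CEBPA promoter (chr19:33301542-33303282) had folds of 8.23 with DMSO, 9.62 with ATRA, 8.24 with Corin and 8.52 with the combination. After centring these were 0.93, 1.06 and 1.02 times the DMSO fold, in the same order. The CEBPG promoter (chr19:33372088-33374367) had folds of 14.1, 14.1, 14.1 and 14.7 for DMSO, ATRA, Corin and the combination, the highest near CEBPG in the DMSO list. All 4 lists gave a close value at both genes, with the centred ATRA fold of the CEBPG promoter 0.79 times that of DMSO.

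The CEBPB promoter (chr20:50190289-50192183) had folds of 5.76 with DMSO, 6.67 with ATRA, 5.49 with Corin and 6.45 with the combination. The pileup told the lists apart more than the fold did. It was 1128 with DMSO, 1130 with ATRA, 1337 with Corin and 2617 with the combination, and after centring the combination was 2.08 times DMSO. The local background under the same promoter was 195, 169, 243 and 405, so signal around the promoter was higher with the combination along with the signal at it, and the fold, which divides one by the other, was 1.10 times DMSO after centring. The CEBPB promoter also held several summits. With ATRA the strongest lay 304 bp before the start (fold 6.67), with Corin 123 bp after it (5.49), with the combination 70 bp after it (6.45) and with DMSO 496 bp after it (5.76). In the ATRA list the summit 488 bp after the start had a fold of 3.45. A region 4.41 kb upstream of CEBPB, in an exon of the antisense gene CEBPB-AS1, was called with ATRA (2.14) and the combination (1.77) and with neither DMSO nor Corin.

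The CEBPE promoter region (chr14:23118478-23121136) spanned 3 annotated starts, at 23120256 (upstream), 23119698 (middle) and 23119255 (downstream). Its strongest summit lay 82 bp from the upstream start with DMSO and 64 bp from it with Corin, and at the downstream start with ATRA (21 bp away) and the combination (29 bp). At the downstream start, the fold was 4.55 with DMSO, 8.96 with ATRA, 5.08 with Corin and 7.46 with the combination. At the upstream start it was 8.73, 6.02, 5.72 and 4.63 in the same order. Both lists with ATRA were high at the downstream start, and DMSO was highest at the upstream one. The middle start had folds of 4.25, 4.72, 3.46 and 3.87.

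Within a list the starts share the depth, so their ratio needs no centring. The pileup at the downstream start was 448 with DMSO, 1196 with ATRA, 465 with Corin and 877 with the combination. At the upstream start it was 834, 770, 497 and 514. The pileup at the downstream start was thus 0.537 times that at the upstream start with DMSO, 0.936 times with Corin, 1.55 times with ATRA and 1.71 times with the combination. Each ratio rests on 1 list, which allows no test. No such ratios at other genes are given here for comparison. The order of starts was chosen for description after the values were seen.

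**Figure D2:**
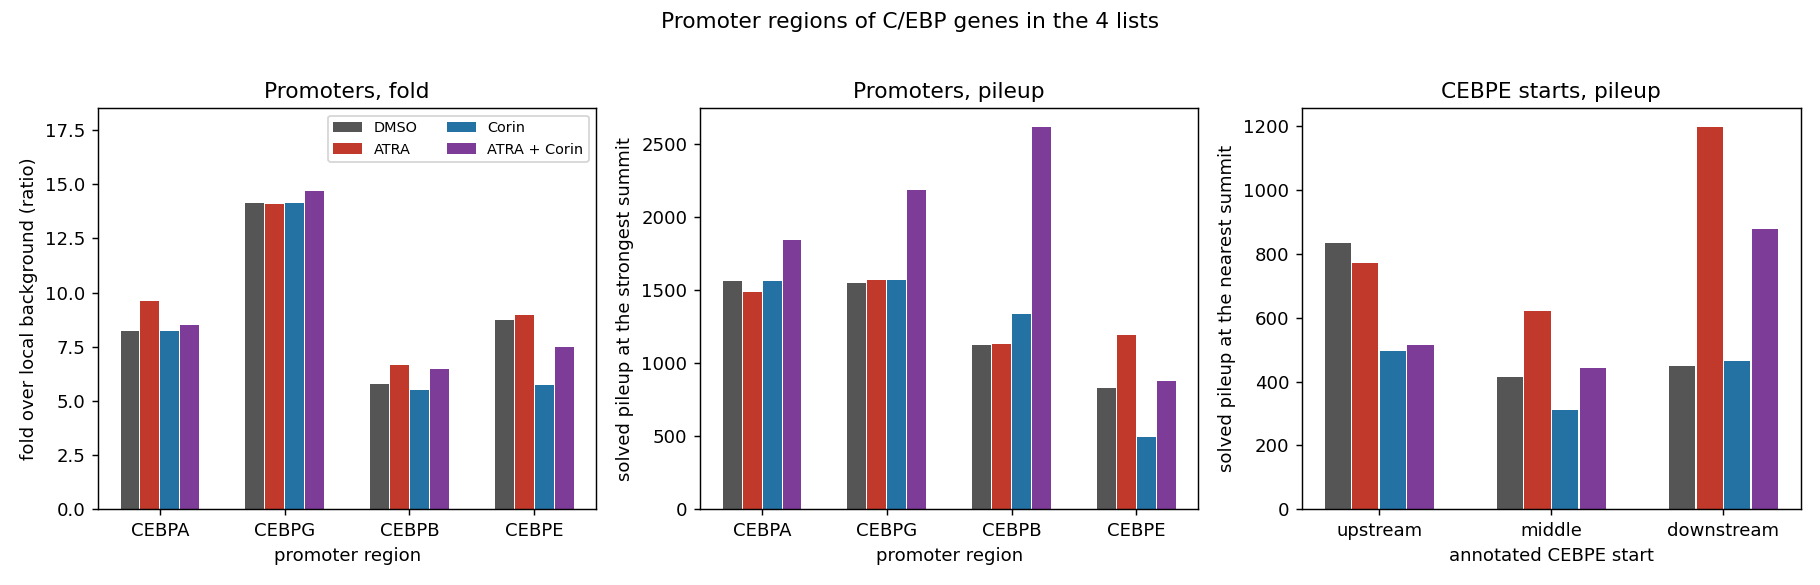
Bars give the highest fold over local background (left) and the solved pileup at the strongest summit (middle) of the 4 promoter regions in each list, and the solved pileup at the summit nearest to each annotated CEBPE start (right), with no error bars because each group had 1 list. The CEBPB pileup of 2617 with the combination and the downstream CEBPE pileups of 1196 with ATRA and 877 with the combination are the tall bars of those panels.

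For ATRA against DMSO, 23 of the 159 regions were gained, that is called with ATRA and not with DMSO (14.5%, Wilson 95% interval 9.84 to 20.8), and the share over all regions was 16.0%. Lost regions, called with DMSO and not with ATRA, numbered 30 (18.9%, 13.5 to 25.7, against 17.9% of all). Among the 80 regions called in both lists, 10 were at least 1.5-fold higher with ATRA (12.5%, against 16.6% of all) and 5 were lower (6.25%, against 8.80%). Their median centred log2 ratio was −0.10, against 0 by construction over all regions. These shares were close to those of all regions. Without centring, 25 of the 80 were higher (31.2%, against 31.9% of all) and 0 were lower (against 3.07%). Intervals cover counting error over regions only.

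Near CEBPE, ATRA gained 7 and lost 6 of 33 regions. The strongest gained one lay 9.05 kb upstream of the gene (chr14:23128981-23129621), 833 bp from the nearest start of SLC7A8, an amino acid transporter gene. It was not called with DMSO or Corin, had a fold of 14.2 with ATRA (−log10 p of 190) and had a fold of 6.07 with the combination (51.2). This is the region whose window, printed above, holds the pair of PU.1 matches. It was 1 of 5 regions among the 23 gained whose −log10 p was at least 50, which 13.7% of all regions gained with ATRA reached.

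Downstream of CEBPE, neighbouring regions went opposite ways with ATRA. A downstream enhancer of this gene is known from mouse granulocyte progenitors. The region 7.38 kb downstream had folds of 11.5 with DMSO, 7.97 with ATRA, 12.2 with Corin and 8.57 with the combination, and the centred ATRA fold was 0.55 times DMSO. Its pileup was 588, 505, 720 and 764, with a centred ATRA value of 0.80 times DMSO. The region 6.57 kb downstream had folds of 3.41, 5.65, 3.62 and 5.56 for DMSO, ATRA, Corin and the combination. It was high in both lists with ATRA, and the centred fold was 1.31 times DMSO with ATRA and 1.60 times with the combination. In pileup it was 1.80 and 2.26 times DMSO. The strongest region of the CEBPE window, 41.4 kb downstream at the promoter of ACIN1, had folds of 20.9, 25.0, 23.2 and 25.7.

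At CEBPB, ATRA gained 6 and lost 9 of 44 regions. The intergenic region 24.5 kb downstream (chr20:50214899-50215583) had folds of 3.46 with DMSO, 14.6 with ATRA, 2.71 with Corin and 3.63 with the combination. Only the ATRA list was high, at 3.34 times DMSO after centring and 2.99 times in pileup. The combination was at 1.03 times DMSO. The region 54.8 kb downstream had folds of 4.95, 10.2, 5.46 and 8.41, which was 1.63 times DMSO for ATRA in the centred fold but 0.97 times in pileup, with a local background of 25.7 with DMSO and 12.5 with ATRA.

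A group of regions 79.9 to 85.5 kb downstream of CEBPB, chosen after its values were seen, lay in and beside PELATON, a long non-coding RNA gene of monocytes and macrophages. At 84.2 kb (chr20:50274589-50275486) the pileup was 883 with DMSO, 2149 with ATRA, 1186 with Corin and 2388 with the combination. It was 2.27 times DMSO with ATRA and 2.42 times with the combination after centring, and 1.47 times with Corin. The fold there was 5.70, 8.19, 7.48 and 8.68, which after centring came to 1.14 times DMSO with ATRA and 1.49 times with the combination. The local background was 154, 262, 158 and 274, high in both lists with ATRA. The region at 85.5 kb had pileups of 223, 534, 261 and 581. That at 81.5 kb had 492, 933, 374 and 974, and that at 79.9 kb had 611, 858, 427 and 767. These 4 regions are those of the span called in all lists. Their pileups are given uncentred, and over all regions the median pileup ratio to DMSO was 0.10 (log2) with ATRA, −0.13 with Corin and 0.16 with the combination. The fifth region of the span, at 80.8 kb, was called with ATRA only, with a fold of 1.34 and a pileup of 342. Farther out, at 93.2 kb, the pileups were 655, 317, 1108 and 950, the lowest with ATRA.

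At CEBPA, ATRA gained 4 and lost 2 of 28 regions. The region 27.4 kb upstream (chr19:33329711-33330080), whose window holds a C/EBP match, had folds of 2.78 with DMSO, 7.23 with ATRA, 2.63 with Corin and 3.46 with the combination. The centred ATRA fold was 2.06 times DMSO and the pileup 2.99 times. A myeloid enhancer downstream of CEBPA is known in human cells, and the regions 41.5 and 42.8 kb downstream, taken by this background after values were seen, lie at about its distance. Their folds were 6.76, 6.99, 7.11 and 7.72 at 41.5 kb and 8.52, 9.37, 8.87 and 9.27 at 42.8 kb for DMSO, ATRA, Corin and the combination. All 4 lists were close there, with centred pileups of 0.97 to 1.04 times DMSO. The strongest region of the window, 15.4 kb downstream, had folds of 12.6, 17.9, 12.4 and 16.1, which after centring were 1.12, 1.04 and 1.25 times DMSO.

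At CEBPG, ATRA gained 1 and lost 4 of 22 regions. The region 57.2 kb downstream, in an intron of the peptidase gene PEPD, had folds of 9.15, 20.0, 10.2 and 12.7. The centred ATRA fold was 1.73 times DMSO, while the pileups were 223, 246, 234 and 277 and the centred ATRA pileup was 1.03 times DMSO. The local background was 23.5 with DMSO and 11.4 with ATRA, so the higher ATRA fold went with a lower background.

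At CEBPD, ATRA gained 5 and lost 9 of 32 regions. The region 71.1 kb upstream (chr8:47808785-47810282), in an intron of the DNA repair kinase gene PRKDC, had folds of 3.41 with DMSO, 17.2 with ATRA, 2.36 with Corin and 6.04 with the combination. ATRA stood at 3.99 times DMSO after centring, and at 3.88 times in pileup. The region 68.0 kb downstream, in an intron of SPIDR, was called with ATRA only, with a fold of 13.8 and a −log10 p of 111. Like several others it lies nearer to the start of another gene than to CEBPD.

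**Figure D3:**
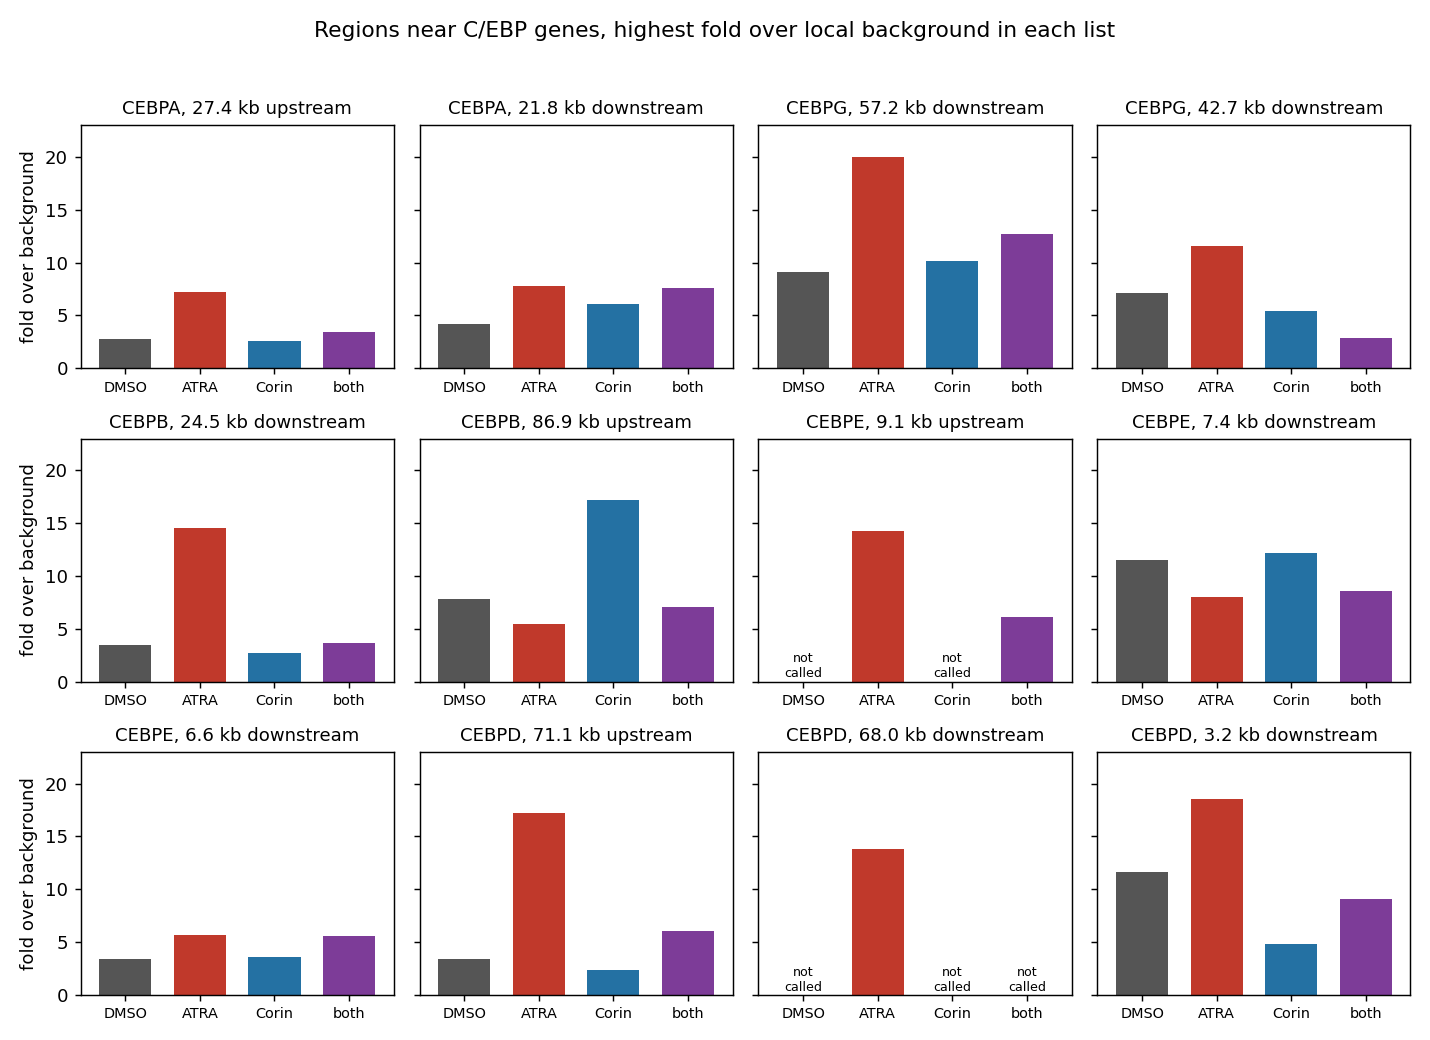
Each panel is 1 region, named by its C/EBP gene and distance, and bars give the authors' highest fold over local background in each list, not centred, with "both" for the combination. The ATRA bar is the tallest at 24.5 kb from CEBPB (14.6) and at 71.1 kb from CEBPD (17.2), the Corin bar at 86.9 kb from CEBPB (17.2).

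For Corin against DMSO, 24 of the 159 regions were gained (15.1%, 10.4 to 21.5, against 10.9% of all) and 14 were lost (8.81%, 5.32 to 14.2, against 20.0% of all). The interval of the lost share did not include the share over all regions. With lists of equal length, 7.19% were lost (3.95 to 12.7, against 13.4% of all) and 20.1% gained (14.3 to 27.6, against 13.1%). Neither of those intervals included the share over all regions. With only the peaks of −log10 q of at least 5, the lost share near the C/EBP genes was 15.3% (10.2 to 22.3), an interval that included the 18.6% of all regions, and the gained share was 9.49% (against 6.97%). Of 96 regions called in both lists, 4 were higher with Corin (4.17%, against 6.34%) and 5 lower (5.21%, against 10.8%). The median centred log2 ratio was 0.08.

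By gene, Corin gained 9 of 32 regions at CEBPD (28.1%, 15.6 to 45.4) and 6 of 22 at CEBPG (27.3%, 13.2 to 48.2). Both intervals lay above the 10.9% of all regions. The gained shares were 4 of 44 at CEBPB (9.09%), 4 of 33 at CEBPE (12.1%) and 1 of 28 at CEBPA (3.57%). Lost were 6 at CEBPD (18.8%), 1 at CEBPG (4.55%), 3 at CEBPB (6.82%), 4 at CEBPE (12.1%) and 0 at CEBPA, against 20.0% of all. Of the 24 gained, 1 had a −log10 p of at least 50. It lay 54.2 kb upstream of CEBPE, in an intron of SLC7A8, and was not called with DMSO and had folds of 4.65 with ATRA, 7.94 with Corin and 5.22 with the combination.

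At CEBPB, Corin was high at the region 86.9 kb upstream (chr20:50103590-50104116), in an intron of UBE2V1, a ubiquitin-conjugating enzyme variant gene. The folds were 7.83 with DMSO, 5.44 with ATRA, 17.2 with Corin and 7.03 with the combination, and the pileups were 107, 54, 285 and 104. Corin was 2.33 times DMSO in the centred fold and 2.92 times in pileup, ATRA was 0.55 and 0.47 times, and the combination was 0.88 and 0.87 times. This is the region with 2 AP-1 matches. The region 35.8 kb downstream had folds of 3.05, 4.64, 5.73 and 5.09, highest with Corin at 1.99 times DMSO after centring and 2.10 times in pileup.

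At CEBPA, the region 21.8 kb downstream (chr19:33280197-33281471), with a RUNX and an AP-1 match in its window, had folds of 4.22 with DMSO, 7.74 with ATRA, 6.13 with Corin and 7.59 with the combination. All 3 treatments were above DMSO, and after centring they were 1.45, 1.54 and 1.76 times DMSO. The pileup gave 1.37, 1.65 and 1.45 times.

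At CEBPD, 3 regions, all on the downstream side, were at least 1.5-fold lower with Corin. The region 3.19 kb downstream (chr8:47734240-47735505), the nearest to the gene and with a PU.1 match, had folds of 11.6 with DMSO, 18.6 with ATRA, 4.86 with Corin and 9.06 with the combination. Its pileups were 439, 514, 134 and 234. Its centred fold was 0.44 times DMSO with Corin and 0.76 times with the combination. The region 57.6 kb downstream had folds of 5.91, 11.3, 2.70 and 4.08, with Corin at 0.49 times DMSO. The next region, 60.3 kb downstream, had folds of 4.32, 4.25, 2.26 and 3.28, with Corin at 0.55 times DMSO. Of the 5 regions lower with Corin, these 3 were near CEBPD and the others near CEBPB. Of the 11 regions near CEBPD called in both lists, 3 were lower (27.3%, 9.75 to 56.6), an interval that included the 10.8% of all regions, and 0 were higher. Corin also gained 9 regions near CEBPD, as given above.

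For the combination against DMSO, 15 regions were gained (9.43%, 5.80 to 15.0, against 9.59% of all) and 34 were lost (21.4%, 15.7 to 28.4, against 22.3%). Of 76 regions in both lists, 6 were higher (7.89%, against 8.26%) and 3 lower (3.95%, against 12.1%), with a median centred log2 ratio of 0.10. In solved pileup, 16 of the 76 were higher (21.1%, 13.4 to 31.5, against 12.5% of all). In that measure 11 were lower (14.5%, 8.28 to 24.1), an interval that included the 19.4% of all. CEBPD lost 10 of 32 regions with the combination and CEBPG 8 of 22. The lowest ratio was at the region 42.7 kb downstream of CEBPG (chr19:33416267-33416889), 577 bp from a start of PEPD. It had folds of 7.16 with DMSO, 11.6 with ATRA, 5.46 with Corin and 2.86 with the combination, and pileups of 239, 129, 179 and 73. The combination was lowest in both measures, at 0.39 times DMSO in the centred fold and 0.27 times in pileup, and ATRA was 1.28 times DMSO in fold but 0.50 times in pileup.

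**Figure D4:**
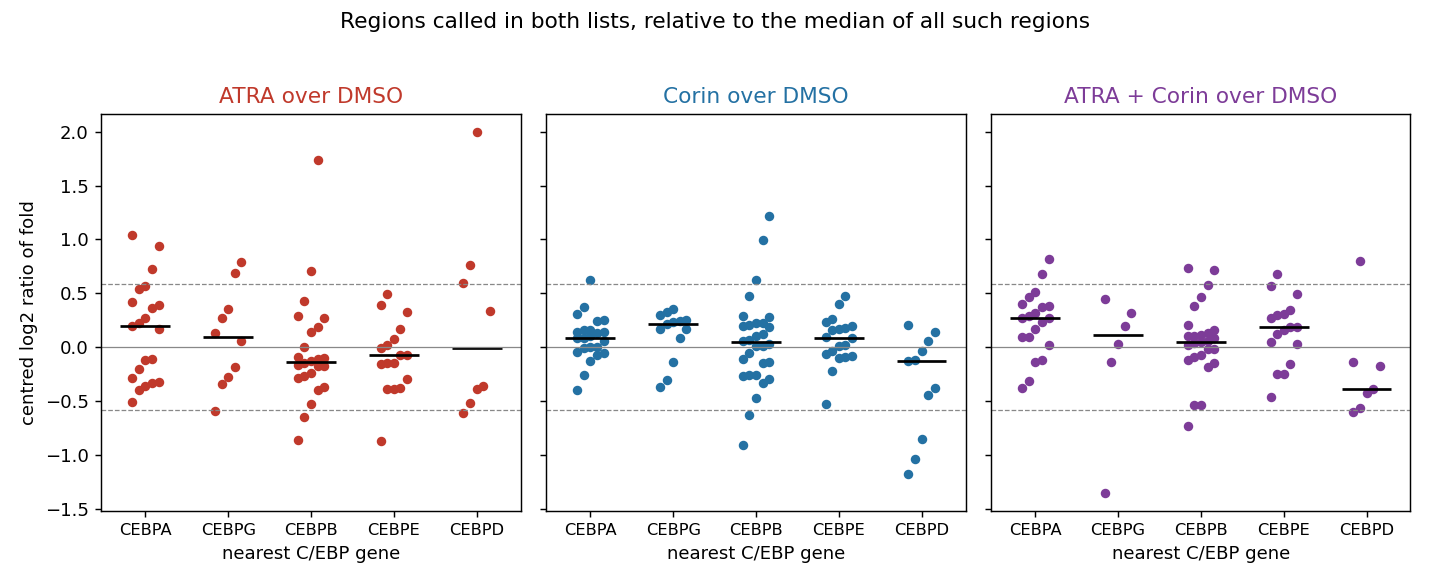
Points are regions called with both the treatment and DMSO, grouped by nearest C/EBP gene, with the centred log2 ratio of fold on the vertical axis. Bars mark medians and dashed lines 1.5-fold, and most points lie between the dashed lines. The CEBPD medians are the lowest with Corin (−0.13, over 11 regions) and with the combination (−0.39, over only 7 regions).

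Adding Corin to ATRA (the combination against ATRA) gained 15 regions (9.43%, against 8.88% of all) and lost 27 (17.0%, against 19.7%). Of 76 regions in both, 5 were higher (6.58%, against 7.18%) and 9 lower (11.8%, against 18.1%). Adding ATRA to Corin (the combination against Corin) gained 7 (4.40%, 2.15 to 8.81, against 11.8%) and lost 36 (22.6%, 16.8 to 29.7, against 15.4%). Both of these intervals lay outside the share over all regions. With only the peaks of −log10 q of at least 5, both included it, at 6.57% gained (3.49 to 12.0, against 10.9% of all) and 12.4% lost (7.89 to 19.0, against 10.7%). With lists of equal length, both excluded it, at 5.76% gained (2.94 to 10.9, against 14.9%) and 20.1% lost (14.32 to 27.6, against 14.30%). The 36 lost regions were spread unevenly over the genes. CEBPD lost 12 of 32 (interval 22.9 to 54.7%) and CEBPG 11 of 22 (30.7 to 69.3%), both intervals above the 15.4% of all regions. CEBPB lost 6 of 44 (13.6%), CEBPE 4 of 33 (12.1%) and CEBPA 3 of 28 (10.7%). These 3 shares were below that of all regions, with intervals that included it. Of 84 regions in both lists, 5 were higher (5.95%, against 9.71%) and 6 lower (7.14%, against 8.97%). Of the 5 regions gained with ATRA at a −log10 p of at least 50, 1 was also called with the combination, the one 9.05 kb upstream of CEBPE. No share over all regions is given beside this count, which therefore shows nothing particular to the C/EBP genes. The regions named for their high ATRA ratio had a centred combination fold of 0.32 times ATRA at 24.5 kb from CEBPB, 0.60 times at 27.4 kb from CEBPA and 0.44 times at 71.1 kb from CEBPD. The choice of all these regions by their ATRA value favours a lower value in another list, so these are descriptions only. The combination lay between the single compounds in fold in 39 of the 72 regions called in all lists (54.2%), as in 53.9% of all such regions.

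The summit position was stable in most regions, since it varied by at most 100 bp over the lists in 60 of the 72. The CEBPE and CEBPB promoters were among the other 12, as was the region 6.57 kb downstream of CEBPE.

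Genes that act with C/EBP proteins were counted from short lists. The regulators and partners, which are DDIT3, ATF4, TRIB1, TRIB2 and TRIB3, had 154 regions in windows of the same size. ATRA gained 20 of these (13.0%, against 16.0% of all regions) and lost 32 (20.8%, against 17.9%). Corin gained 11 (7.14%, against 10.9%) and lost 35. The combination gained 12 (7.79%, against 9.59%) and lost 36 (23.4%, against 22.3%). Corin lost 22.7% (16.8 to 30.0) there, an interval that included the 20.0% of all regions. The 17 genes known as C/EBP targets in myeloid cells, such as CSF3R, ELANE and MPO, had 476 regions. ATRA gained 54 of them (11.3%, 8.80 to 14.5, against 16.0%), an interval below the share over all regions. It lost 85 (17.9%, against 17.9%). Corin gained 41 (8.61%, against 10.9%) and lost 87. The combination gained 44 (9.24%, against 9.59%) and lost 89 (18.7%, against 22.3%). Corin lost 18.3% (15.1 to 22.0) of the target regions, again with the share over all regions inside the interval. Among target regions in both lists, 40 of 290 were higher with ATRA (13.8%, against 16.6% of all) and 24 lower (8.28%, against 8.80%). The median log2 ratio was −0.02. With Corin, 22 of 288 were higher (7.64%, against 6.34%) and 14 lower (4.86%, 2.92 to 7.99, against 10.8%), with a median of 0.07. The interval of the lower share with Corin lay below the share over all regions.

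**Figure D5:**
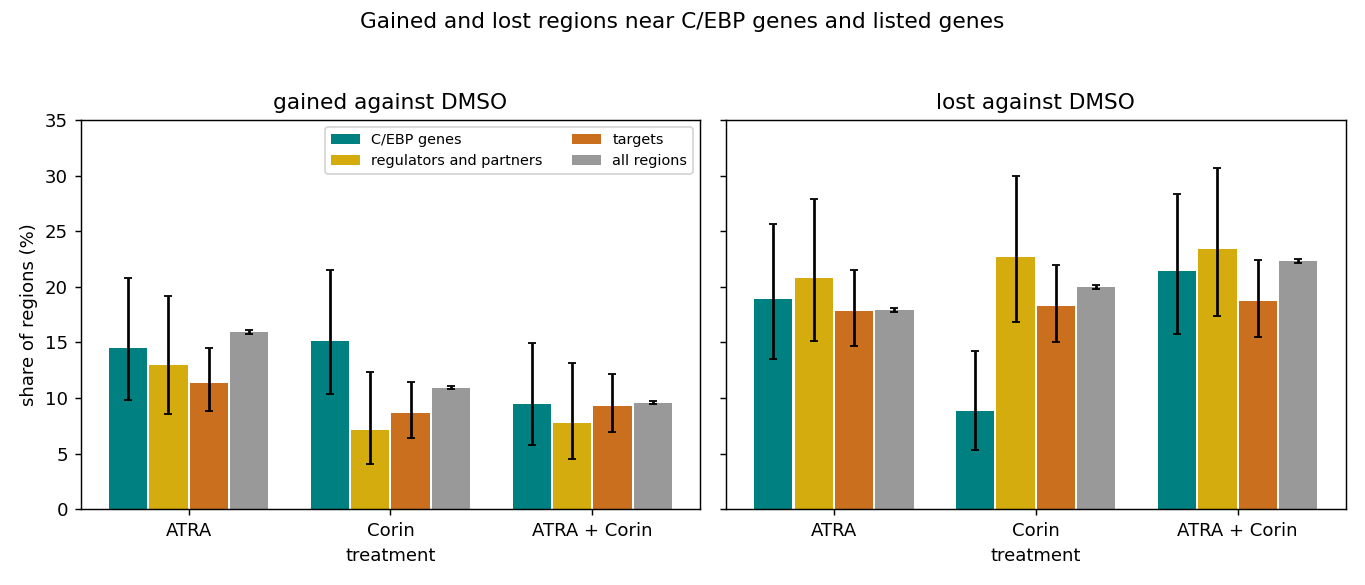
Bars give the share of regions gained (left) or lost (right) against DMSO for each treatment near the C/EBP genes, near the 2 gene lists and over all regions, with Wilson 95% intervals that cover counting error over regions only. The interval of the C/EBP share lost with Corin (5.32 to 14.2%) lies below the share over all regions, and the other intervals of the C/EBP genes include that share.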

How the data were processed

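Open chromatin of U-937 cells was measured by ATAC-seq in 8 samples, which the labels place in 4 groups of 2. Each group had 1 deposited list of peaks, made by the authors from its replicates together, and the read depth is unknown. The submitters' processing notes name cutadapt, Bowtie2, SAMtools, Picard, MACS2 and the build hg38, without versions or settings. The deposited fold is a ratio, the height of a peak divided by the background around it. The deposited p and q columns are −log10 values, the display score in the deposited files was not analysed, and the deposited summit is given as bp from the peak's start. The number of unused columns of per-sample values was 0.

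Peaks overlapping by at least 1 bp were merged over the 4 lists into regions on 24 chromosomes and annotated with GENCODE release 44. A region was called in a list that held a peak in it. It was higher or lower when its highest fold, centred on the median of all regions called in both lists, differed at least 1.5-fold. A region in the windows of both CEBPA and CEBPG went to the nearer start. The pileup and local background were solved from fold and p, taking p as a Poisson probability and adding 1 to both in the fold, and came out whole, within 0.05, for 99.96 to 99.98% of peaks in each list. A promoter region lay within 1 kb of a start. Promoter sequences came from RefSeq (GRCh38.p14).

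For each gene the regions named were the promoter, the one with the highest DMSO fold, the highest and lowest ratio past 1.5-fold and the strongest gained and lost region for each treatment against DMSO, from which the text describes those with the largest values. Others are said to be chosen after their values were seen. Of the marker genes, 1 is not reported here. The members, gene lists, motifs and markers were chosen with earlier results of these data known. With 1 list per group there was no test over samples. Alternatives were a −log10 q limit of 5, an overlap of at least 50%, merging within 150 bp, a window of 50 kb, lists of equal length, no centring, centring within 10 classes of strength, a 2-fold limit, solved pileup and −log10 p. The scripts were tested on simulated data. Python 3.11.15, pandas 2.3.3, numpy 2.4.6, scipy 1.17.1, pysam 0.24.0 and matplotlib 3.10.9 were used.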

Additional observations from a re-analysis of the deposited data

How the results depend on the processing

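No paired analysis was possible because each list pools the replicates of its group, and for the same reason no replicate could be left out. Shares of gained and lost regions moved by less than their counting interval under an overlap of 50% and merging within 150 bp. With a −log10 q limit of 5, the share gained with Corin over DMSO was 9.49%, the share lost 15.3%, and the share lost with the combination over Corin 12.4% (10.7% of all regions), where the gained share was 6.57% (10.9% of all). With lists of equal length, the share lost with the combination was 13.7% over DMSO and 9.35% over ATRA (14.3% and 13.2% of all regions). At that setting, Corin over DMSO lost 7.19% and gained 20.1% (13.4% and 13.1% of all regions). The combination over Corin gained 5.76% and lost 20.1% (14.9% and 14.3% of all regions). Within 50 kb, 9.64% were gained with Corin (10.9% of all regions).

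Centring within 10 classes of strength moved none of the 10 shares of higher and lower regions beyond their interval. Without centring, ATRA over DMSO gave 31.2% higher and 0% lower (31.9% and 3.07% of all), and the combination over ATRA gave 0% higher (1.89% of all). With a 2-fold limit, higher and lower shares were 3.75% and 0% for ATRA over DMSO (7.02% and 2.37% of all). They were 1.04% and 2.08% for Corin over DMSO (1.78% and 2.84% of all). For the combination they were 0% and 1.32% over DMSO (2.23% and 4.36% of all). Over ATRA it gave 0% and 5.26% (1.43% and 7.81% of all), and over Corin 1.19% and 2.38% (3.06% and 3.16% of all). In solved pileup, the combination gave 21.1% higher and 14.5% lower over DMSO (12.5% and 19.4% of all), 23.7% higher over ATRA (12.9% of all) and 14.3% higher over Corin (12.4% of all). The intervals of the higher shares over DMSO (13.4 to 31.5%) and over ATRA (15.5 to 34.4%) lay above the shares of all regions, unlike in fold. In −log10 p, higher and lower shares were 25.0% and 17.5% for ATRA over DMSO (26.9% and 21.4% of all). They were 21.9% and 18.8% for Corin over DMSO (18.4% and 24.5% of all). For the combination they were 30.3% and 17.1% over DMSO (19.8% and 27.3% of all). Over ATRA it gave 30.3% higher (21.7% of all), and over Corin 28.6% and 20.2% (20.6% and 23.1% of all). The region 54.8 kb downstream of CEBPB reversed with ATRA, at a centred log2 ratio of −0.048 in solved pileup. The cause of these shifts was not tested. A threshold on unequal −log10 p also grows with depth, which is unknown, and regions near the calling limit can be gained or lost by a few reads.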
